A study of Mus musculus with 3 samples.

Results

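The 10 nonclassical MHC class I genes H2-Q1, H2-Q2, H2-Q4, H2-Q6, H2-Q7, H2-Q10, H2-T22, H2-T23, H2-M2 and H2-M3 were described in mesenteric lymph nodes of mice, the nodes that drain the gut, from single-cell RNA libraries. They were found by symbol among the 32285 genes of the deposited matrices, and all 10 have a row. The set was selected on measured values of these libraries, since the UMI counts of H2-Q7, H2-T23 and H2-M2 differed between them. The differences of these genes between libraries are therefore given as a description, with no test.

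The study has 3 libraries, each from the pooled nodes of 6 mice after 4 weeks of oral feeding. The LysoPS-OVA animals received 1 µg ovalbumin in lyso-phosphatidylserine nanoparticles, the free OVA animals 1 µg ovalbumin without particles, and the citrate buffer animals 5 mM citrate buffer alone. Ovalbumin, an egg white protein, serves as a model food antigen. The sources used here do not give strain, sex or age of the animals. The labels name the nodes as tissue and intestinal cells as cell type, but at most 12 of the kept barcodes of any library held transcripts of 2 or more of 6 epithelial genes (Epcam, Vil1, Krt8, Krt19, Fabp1 and Muc2). With 1 library per group there is no replicate: every difference lies between pools of animals, and the 95% intervals cover counting error only.

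MHC class I molecules are membrane proteins that pair with beta-2 microglobulin (B2m) and show peptides on the cell surface. The classical ones, H2-K1 and H2-D1 in the mouse, present peptides to CD8 T cells, while the nonclassical ones vary less between individuals and serve narrower purposes. H2-Q6 and H2-Q7 encode forms of Qa-2, a surface antigen of mouse lymphocytes. H2-T23 encodes Qa-1, whose complex with a leader peptide of other class I molecules is read by the inhibitory receptor of Klrd1 and Klrc1 on natural killer and CD8 T cells. H2-T22 is a ligand of gamma delta T cell receptors, H2-M3 presents N-formylated peptides of bacteria, and H2-Q10 is a secreted form known from mouse liver.

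All 10 genes lie on chromosome 17 (GRCm38), in the major histocompatibility complex. In GENCODE the H2-Q genes run from H2-Q1, which starts at 35320405, to H2-Q10, which ends at 35474563, and H2-Q7 occupies chr17:35439155-35443773. H2-T23 (chr17:36029773-36032855) and H2-T22 (chr17:36037128-36042747) are neighbours. H2-M3 (chr17:37270220-37274484) and H2-M2 (chr17:37480851-37483552) lie farther along. RefSeq promoter sequence (GRCm38.p6) was matched for 9 of the 10 genes, H2-Q1 being the exception. The 200 bases before the annotated start are shown for H2-Q7 (chr17:35438955-35439154, plus strand), H2-Q6 (chr17:35424650-35424849, plus) and H2-Q4 (chr17:35379417-35379616, plus), because H2-Q6 and H2-Q7 were both higher in CD4 T and CD8 T barcodes of LysoPS-OVA and H2-Q4 was within the 1.5-fold bounds. Those of H2-T23 (chr17:36032702-36032901, minus) and H2-M2 (chr17:37483555-37483754, minus) are shown because these genes differed between libraries in another order. Each is written 5′ to 3′ on the strand of the gene, and capitals mark matches on either strand to the letters TTTCACTT (the core of an interferon-stimulated response element, ISRE), GGGATTCCC (core of enhancer A, a site of the NF-kB type), TGATGAC (X box core) and ATTGG (Y box).
H2-Q7: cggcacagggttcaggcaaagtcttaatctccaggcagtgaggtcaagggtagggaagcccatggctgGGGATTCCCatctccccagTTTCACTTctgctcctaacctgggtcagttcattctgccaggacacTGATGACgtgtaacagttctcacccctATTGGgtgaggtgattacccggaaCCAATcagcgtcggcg
H2-Q6: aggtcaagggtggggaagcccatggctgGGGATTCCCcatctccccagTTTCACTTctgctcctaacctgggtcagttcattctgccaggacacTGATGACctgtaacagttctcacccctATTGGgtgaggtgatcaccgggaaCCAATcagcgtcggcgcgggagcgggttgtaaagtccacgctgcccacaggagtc
H2-Q4: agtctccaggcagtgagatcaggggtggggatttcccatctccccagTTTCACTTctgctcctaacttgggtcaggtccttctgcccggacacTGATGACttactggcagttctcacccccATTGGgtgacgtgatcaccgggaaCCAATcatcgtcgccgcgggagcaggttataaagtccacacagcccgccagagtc
H2-T23: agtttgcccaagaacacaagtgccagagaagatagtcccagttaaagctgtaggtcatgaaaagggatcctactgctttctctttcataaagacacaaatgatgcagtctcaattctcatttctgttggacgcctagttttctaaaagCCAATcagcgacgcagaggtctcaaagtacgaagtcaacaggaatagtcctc
H2-M2: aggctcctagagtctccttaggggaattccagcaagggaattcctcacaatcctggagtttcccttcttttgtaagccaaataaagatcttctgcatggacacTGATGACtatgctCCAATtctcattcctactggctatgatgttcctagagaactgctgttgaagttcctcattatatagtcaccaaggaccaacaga

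These elements are known from class I promoters, where enhancer A, the ISRE and the X and Y boxes follow each other towards the start. The 160 aligned bases of the H2-Q6 and H2-Q7 windows were 97.5% identical, and those of H2-Q4 and H2-Q7 were 88.1% identical. Of the 9 windows, those of H2-Q6 and H2-Q7 alone matched the enhancer A letters, which 0.213% of all 32851 promoter windows of this length held. The ISRE letters were found in 6 of the 9 windows (H2-Q4, H2-Q6, H2-Q7, H2-Q10, H2-T22 and H2-M3), against 1.03% of all windows. The X box letters were found in 6 of the 9 (H2-Q4, H2-Q6, H2-Q7, H2-T22, H2-M2 and H2-M3), against 2.19% of all. The Y box letters were found in all but H2-Q10, against 29.3% of all. The windows lie before the start in RefSeq, and that of H2-T23 is farther inside the gene than in GENCODE, so 154 of its 200 bases lie within the gene as placed above. Of the letters searched, the H2-T23 window held only those of the Y box, and that of H2-M2 those of the X and Y boxes. No marked matches overlap, and a match is a description of letters, not evidence of binding. Only these exact letters were searched, so a missing match does not show that an element is absent. Similar stretches with other letters, such as gggatttccc in the H2-Q4 window, ggggaattcc in that of H2-M2 and tttctctttc in that of H2-T23, were not counted.

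The libraries held 84089686 UMIs in LysoPS-OVA, 81559237 in free OVA and 96616683 in citrate buffer. After filtering, 15929, 21603 and 21993 barcodes were kept in the same order, with median depths of 4126, 1823 and 2646 UMIs. Between 166 and 194 barcode sequences were shared by any 2 libraries. Barcodes were gated into 14 classes by markers, and the 6 classes with at least 50 barcodes in every library are described. Barcodes with markers of several classes, of none, or of T cells without a subset are not. B barcodes numbered 6241 in LysoPS-OVA, 6733 in free OVA and 6802 in citrate buffer, and CD4 T barcodes without Foxp3 numbered 2004, 1081 and 1705. Regulatory T barcodes (360, 251 and 278), CD8 T barcodes (751, 464 and 1157), migratory dendritic cell (DC) barcodes (600, 1685 and 981) and type 1 conventional DC (cDC1) barcodes (65, 183 and 87) were fewer. The pools also differ in sex makeup: among CD4 T barcodes with either Xist or Y-linked UMIs but not both, the Y-linked share was 86.1% in LysoPS-OVA, 78.0% in free OVA and 58.8% in citrate buffer. Barcodes with under 10% ribosomal protein UMIs made up 6.94%, 8.60% and 20.1% of CD4 T barcodes.

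Levels are UMIs per 1000000 UMIs of the class in a library (CPM), with exact Poisson 95% intervals. They come from counts at the 3′ end of transcripts and are not scaled by length, so they are compared within a gene and not between genes. Over all kept barcodes, H2-Q7 had 36741 UMIs, H2-T23 23723, H2-T22 18630, H2-M3 10291, H2-Q6 9328, H2-Q4 6653 and H2-M2 2746. H2-Q10 (672 UMIs), H2-Q1 (437) and H2-Q2 (352) stayed at or below 10 CPM in every described class and library. These 3 genes were too low to compare. A gene counted as differing when the ratio of (CPM + 10) was 1.5 or more in either direction, provided that the library with more of it held at least 20 CPM and 30 UMIs. A member passes this filter through the library in which it is high.

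In each of the T cell classes H2-Q7, a Qa-2 gene, was highest in the LysoPS-OVA library. Its level in CD4 T barcodes was 311 CPM in LysoPS-OVA, 151 in free OVA and 125 in citrate buffer. In CD8 T barcodes the values were 415 CPM in LysoPS-OVA, 227 in free OVA and 167 in citrate buffer. In regulatory T barcodes they were 410 CPM in LysoPS-OVA, 186 in free OVA and 163 in citrate buffer. LysoPS-OVA was the highest library in each of these classes, with intervals clear of the other libraries. The LysoPS-OVA/citrate buffer ratio was 2.495 (2.32 to 2.69) in CD4 T, 2.49 (2.29 to 2.70) in CD8 T and 2.52 (2.15 to 2.96) in regulatory T barcodes. By the same measure 0.705% of the 6242 genes tested were higher in CD4 T barcodes, 0.857% in CD8 T and 3.39% in regulatory T. Among the tested genes H2-Q7 was at percentile 99.97 in CD4 T, 99.92 in CD8 T and 99.87 in regulatory T barcodes. As the gene was chosen for differing between these libraries, such a rank does not measure how unusual it is. The median gene of CD4 T barcodes had a ratio of 0.907, and relative to it the H2-Q7 ratio was 2.75.

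In B barcodes H2-Q7 stood at 133 CPM in LysoPS-OVA, 93.2 in free OVA and 112 in citrate buffer, so the LysoPS-OVA/citrate buffer ratio was 1.19 (1.13 to 1.25). In migratory DC barcodes it reached 591 CPM in LysoPS-OVA, 347 in free OVA and 527 in citrate buffer, the highest H2-Q7 levels of any class within each library. In cDC1 barcodes it was 204 CPM in LysoPS-OVA, 99.4 in free OVA and 183 in citrate buffer. In these DC classes the low library was free OVA, and the LysoPS-OVA and citrate buffer values lay close together. The ratio of free OVA to citrate buffer was 0.658 in migratory DC and 0.542 in cDC1 barcodes, where 14.5% and 22.8% of the tested genes were lower by the 1.5-fold measure. Relative to the median gene, whose ratio in migratory DC was 0.80, the H2-Q7 value was 0.823, inside the 1.5-fold bounds.

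Between the 2 ovalbumin libraries, H2-Q7 was higher in LysoPS-OVA than in free OVA in 5 of the 6 classes by the 1.5-fold measure. The ratios were 2.05 (1.91 to 2.21) in CD4 T, 1.83 in CD8 T, 2.20 in regulatory T, 1.70 in migratory DC and 2.05 in cDC1 barcodes, and 1.43 in B barcodes. The share of tested genes higher by the same measure was 0.198% in CD4 T, 0.367% in CD8 T, 2.64% in regulatory T, 14.7% in migratory DC, 2.71% in cDC1 and 0.245% in B barcodes. This comparison and the one of free OVA with citrate buffer share the free OVA library, and both comparisons with citrate buffer share that library, so they are not independent.

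**Figure D1:**
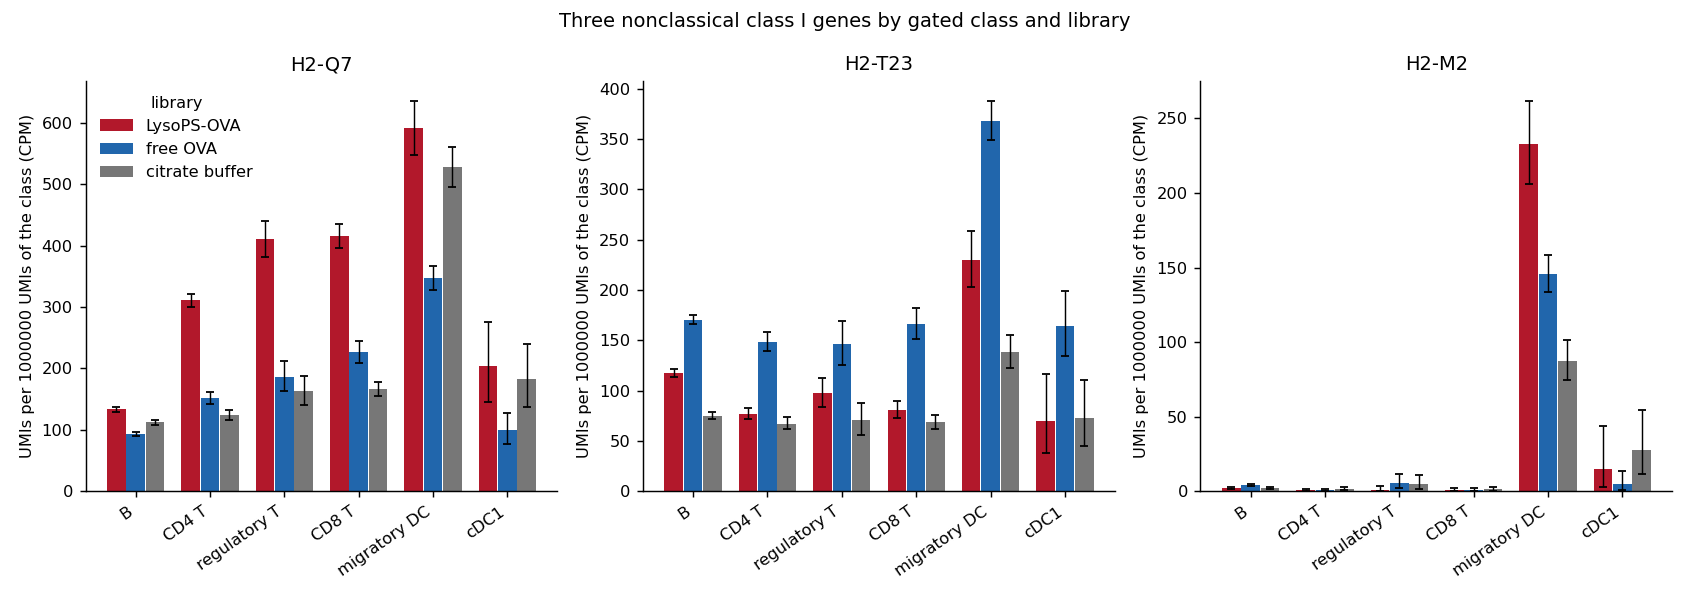
H2-Q7, H2-T23 and H2-M2 in the 6 gated classes (x axis) as UMIs per 1000000 UMIs of the class (y axis, CPM), with 1 bar per library and exact Poisson 95% intervals that cover counting error only. H2-Q7 is highest in LysoPS-OVA in the T cell classes (311, 410 and 415 CPM), H2-T23 is highest in free OVA in all 6 classes, and of these 6 classes H2-M2 exceeds 30 CPM only in migratory DC.

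The share of CD4 T barcodes with an H2-Q7 UMI followed the summed level and is no separate support for it. With every barcode thinned to 1000 UMIs, 27.5% of CD4 T barcodes carried an H2-Q7 UMI in LysoPS-OVA, 13.3% in free OVA and 12.7% in citrate buffer. A Poisson spread of the thinned means alone would give 29.0%, 13.9% and 13.3%. Without thinning, the shares were 73.3%, 50.4% and 36.2%, at median depths of 5172, 6096 and 3990 UMIs. The thinned variance of H2-Q7 in CD4 T barcodes was 1.10 times its mean in LysoPS-OVA, 1.12 times in free OVA and 1.09 times in citrate buffer. At these depths, with a mean under 1 UMI per barcode, this ratio says little about how the level is shared out among barcodes.

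H2-Q6, the other Qa-2 gene measured, was like H2-Q7 highest in LysoPS-OVA in the T cell classes, at lower counts. Its level was 40.4 CPM in LysoPS-OVA, 30.9 in free OVA and 21.0 in citrate buffer in CD4 T barcodes, and in CD8 T barcodes 64.1, 54.1 and 33.5 CPM in the same order. The LysoPS-OVA/citrate buffer ratio was 1.93 (1.60 to 2.33) in CD4 T and 1.91 (1.57 to 2.33) in CD8 T barcodes. In regulatory T barcodes it was 72.7 CPM in LysoPS-OVA, 50.8 in free OVA and 47.8 in citrate buffer, a ratio of 1.52 that the pseudocount brought under the 1.5-fold measure. H2-Q6 and H2-Q7 were the members that exceeded it in CD4 T and CD8 T barcodes, out of 6 tested in each. In the Xist barcodes alone the H2-Q6 ratio turned to 0.912 in CD4 T, 0.805 in CD8 T and 0.647 in regulatory T barcodes, while that of H2-Q7 was 1.58, 1.497 and 2.21.

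B barcodes held another mix of these Qa-2 genes than the T and migratory DC classes. H2-Q6 made up 31.8% of the summed H2-Q6 and H2-Q7 UMIs of B barcodes in LysoPS-OVA (exact 95% interval 30.6 to 33.0), 29.2% in free OVA and 31.2% in citrate buffer. The share in CD4 T barcodes was 11.5% in LysoPS-OVA (10.5 to 12.5), 16.9% in free OVA and 14.4% in citrate buffer. In migratory DC barcodes it was 12.0% in LysoPS-OVA, 15.8% in free OVA and 14.3% in citrate buffer. In regulatory T barcodes it was 15.0% in LysoPS-OVA, 21.4% in free OVA and 22.7% in citrate buffer. Every B value lay above every T and migratory DC value. The difference was not tested. The 2 genes are close copies, and reads can be hard to assign. Of the 90-base words in the last 500 bases of GENCODE transcripts, 26.9% of those of H2-Q6 also occur in transcripts of other genes, H2-Q7, H2-K1 and H2-D1 among them, so its counts are uncertain. For H2-Q7 the share was 3.87%, shared with H2-Q5, and for H2-T23, H2-T22 and H2-Q4 it was 4.4%, 13.2% and 7.30%. H2-M2, H2-M3 and H2-Q10 shared no such word.

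H2-T23, the Qa-1 gene, followed another order, with free OVA highest in all 6 classes. In B barcodes it stood at 118 CPM in LysoPS-OVA, 171 in free OVA and 75.3 in citrate buffer. CD4 T barcodes had values of 77.3 CPM in LysoPS-OVA, 148 in free OVA and 67.5 in citrate buffer. In CD8 T barcodes they were 81.2 CPM in LysoPS-OVA, 166 in free OVA and 68.6 in citrate buffer, and in regulatory T barcodes 97.5, 146 and 70.9 CPM in the same order. Free OVA stood clear of both other libraries in these 4 classes, while LysoPS-OVA and citrate buffer were close in CD4 T and CD8 T barcodes.

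The ratio of free OVA to citrate buffer was 2.26 (2.14 to 2.39) in B, 2.20 (1.97 to 2.46) in CD4 T, 2.42 in CD8 T, 2.06 in regulatory T, 2.67 (2.34 to 3.05) in migratory DC and 2.26 in cDC1 barcodes. The background of genes higher by the 1.5-fold measure was 0.641% in B, 0.51% in CD4 T, 0.631% in CD8 T, 3.29% in regulatory T, 0.965% in migratory DC and 6.5% in cDC1 barcodes. H2-T23 was the member above this measure in each of the 4 lymphocyte classes. In migratory DC barcodes H2-T23 stood at 230 CPM in LysoPS-OVA, 368 in free OVA and 138 in citrate buffer. In cDC1 barcodes it had 14 UMIs in LysoPS-OVA (69.5 CPM), 104 in free OVA (164 CPM) and 21 in citrate buffer (72.6 CPM).

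LysoPS-OVA exceeded citrate buffer for H2-T23 by 1.57 (1.48 to 1.66) in B barcodes, where 1.31% of genes were higher by the 1.5-fold measure. With the pseudocount of 10 CPM H2-T23 fell short of that measure, and with 0 or 1 CPM it passed. The same ratio was 1.15 (1.02 to 1.28) in CD4 T and 1.66 (1.40 to 1.97) in migratory DC barcodes. In the Y-linked migratory DC barcodes (125 in LysoPS-OVA and 192 in citrate buffer) it was 0.989, on the other side of 1. In migratory DC, 5.2% of genes were higher by the measure. In cDC1 barcodes, where 4.57% were, H2-T23 had too few UMIs in these libraries to compare, and 0 of 1 testable members (H2-Q7) passed. Relative to free OVA, LysoPS-OVA was lower at 0.521 (0.474 to 0.572) in CD4 T, 0.488 in CD8 T, 0.623 in migratory DC and 0.424 in cDC1 barcodes, where 0.198%, 0.367%, 1.13% and 14.4% of genes were lower by the measure. In B barcodes the ratio was 0.691 and in regulatory T 0.668. In the migratory DC barcodes with at least 0.5% Malat1 and 10% ribosomal protein UMIs, which numbered 37 in LysoPS-OVA, 111 in free OVA and 104 in citrate buffer, the free OVA/citrate buffer ratio of H2-T23 was 1.60 and the LysoPS-OVA/citrate buffer ratio 1.29. The part of RNA quality in these values was not tested.

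Thinned to 1000 UMIs, 10.9% of B barcodes carried an H2-T23 UMI in LysoPS-OVA, 13.6% in free OVA and 7.59% in citrate buffer, and the variance was 0.994, 1.08 and 1.005 times the mean. The CD4 T shares were 7.19% in LysoPS-OVA, 13.2% in free OVA and 6.58% in citrate buffer. The order of the libraries was the same as in the summed levels.

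**Figure D2:**
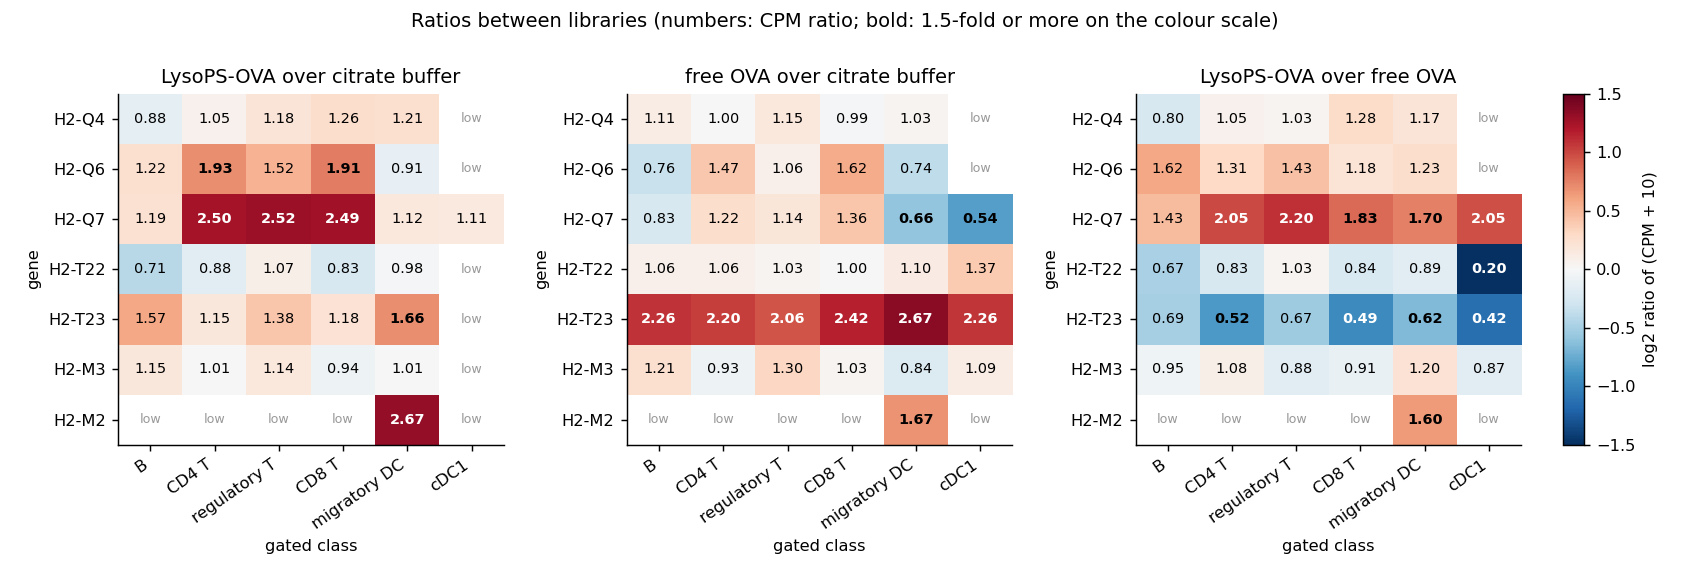
Ratios of CPM between libraries for the 7 members with enough UMIs (rows) in the 6 gated classes (columns), 1 panel per pair of libraries, with the colour giving the log2 ratio after adding 10 CPM. Bold marks 1.5-fold or more on that scale and "low" marks too few UMIs. H2-Q7 is bold in the T cell columns of the LysoPS-OVA panels, and H2-T23 is bold in all 6 columns of the panel of free OVA over citrate buffer.

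Of the 6 classes, H2-M2 was highest in migratory DC in every library. These barcodes held 278 UMIs of it in LysoPS-OVA (233 CPM, 206 to 262), 546 in free OVA (145 CPM, 133 to 158) and 171 in citrate buffer (87.2 CPM, 74.6 to 101). The 3 intervals do not overlap, with LysoPS-OVA highest and citrate buffer lowest. In B barcodes H2-M2 stood at 2.43 CPM in LysoPS-OVA, 4.19 in free OVA and 2.41 in citrate buffer, and in CD4 T barcodes at 0.746, 0.768 and 1.68 CPM. In cDC1 barcodes it had 3 UMIs in LysoPS-OVA, 3 in free OVA and 8 in citrate buffer, between 4.73 and 27.7 CPM.

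In migratory DC barcodes the H2-M2 LysoPS-OVA/citrate buffer ratio was 2.67 (2.20 to 3.25), that of free OVA to citrate buffer 1.67 (1.40 to 1.99) and that of LysoPS-OVA to free OVA 1.60 (1.38 to 1.85). H2-M2 and H2-T23 were the members above the 1.5-fold measure here in each comparison with citrate buffer. Between LysoPS-OVA and free OVA, where 14.7% of genes were above it, H2-M2 was at percentile 88.1 of the tested genes. With barcodes thinned to 1000 UMIs, 13.03% of migratory DC barcodes carried an H2-M2 UMI in LysoPS-OVA, 12.5% in free OVA and 5.68% in citrate buffer. CD4 T barcodes were taken as a stand-in for the background of free RNA, which was not measured. Among them 0.0499% carried one in LysoPS-OVA (1 barcode), 0 of 1072 in free OVA and 0.235% in citrate buffer (4 barcodes). At 3 counts of the total, the free OVA value allows a share of up to 0.280%. The shares of B barcodes were 0.147%, 0.448% and 0.302% in the same order. Median depths were 1599, 1916 and 1722 UMIs in migratory DC and 5172, 6096 and 3990 UMIs in CD4 T barcodes.

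By the share of barcodes the ovalbumin libraries were close in H2-M2, and in LysoPS-OVA a few barcodes held much of the summed level. In LysoPS-OVA the highest migratory DC barcode held 45 H2-M2 UMIs and the next 20, and the 10 highest barcodes held 43.9% of all H2-M2 UMIs of the class. In free OVA the highest held 31 and the next 8 UMIs, and the 10 highest held 15.6%. In citrate buffer the highest held 11 and the next 8 UMIs, and the 10 highest held 30.4%. Barcodes with any H2-M2 UMI numbered 127 in LysoPS-OVA, 334 in free OVA and 105 in citrate buffer. The 10 highest are thus a smaller part of them in free OVA, and these shares depend in part on class size. After thinning, the variance was 2.997 times the mean in LysoPS-OVA, 1.68 times in free OVA and 1.94 times in citrate buffer. In the same class it was 1.51, 1.21 and 1.34 times for H2-Q7 and 1.32, 1.13 and 1.22 times for H2-T23. Without the highest barcode of each library the LysoPS-OVA/citrate buffer ratio was 2.40 and that of LysoPS-OVA to free OVA 1.43. The mean of per-barcode CPM gave 2.02 and 1.28 for these ratios.

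Migratory DC barcodes were poor in Malat1, a nuclear RNA: 89.7% of them in LysoPS-OVA, 92.5% in free OVA and 87.0% in citrate buffer had under 0.5% of it. In the 37, 111 and 104 barcodes rich in both Malat1 and ribosomal UMIs H2-M2 stood at 344 CPM in LysoPS-OVA, 148 in free OVA and 178 in citrate buffer. The LysoPS-OVA/citrate buffer ratio was 1.94 there, and that of free OVA to citrate buffer was 0.831, the other side of 1 from the value over all migratory DC barcodes. The part of RNA quality in these ratios was not tested.

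**Figure D3:**
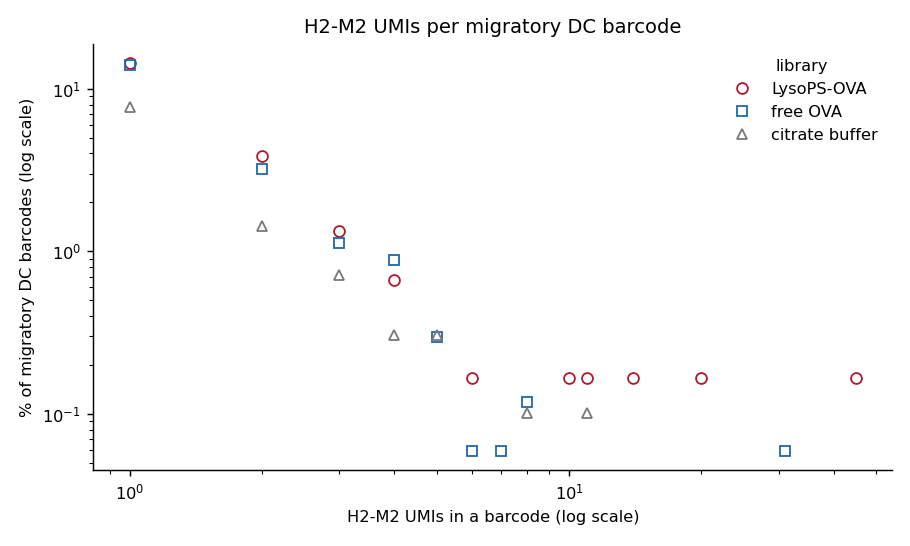
Share of migratory DC barcodes (y axis, log scale) that hold a given number of H2-M2 UMIs (x axis, log scale, barcodes with at least 1 UMI), by library. LysoPS-OVA and free OVA lie together at 1 to 3 UMIs and above citrate buffer, and the highest barcodes hold 45 UMIs in LysoPS-OVA, 31 in free OVA and 11 in citrate buffer.

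Outside cDC1, the remaining members stayed inside the 1.5-fold bounds. H2-T22 stood at 50.5 CPM in LysoPS-OVA, 75.0 in free OVA and 70.9 in citrate buffer in B barcodes, a LysoPS-OVA/citrate buffer ratio of 0.712 (0.663 to 0.765). H2-T22 in CD4 T barcodes was 96.8, 116 and 110 CPM in the same order, and in migratory DC barcodes 141, 158 and 144 CPM. In cDC1 barcodes it had 3 UMIs in LysoPS-OVA, 48 in free OVA and 16 in citrate buffer, and the ratio of LysoPS-OVA to free OVA was 0.197 (0.0392 to 0.610). H2-Q4 ranged between 25.4 and 63.7 CPM in the 5 classes other than cDC1, with ratios between libraries of 0.796 to 1.28. H2-M3 ranged from 35.6 to 69.3 CPM over all 6 classes, and its ratios stayed inside the 1.5-fold bounds wherever it was tested.

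The order of cell classes differed between the genes. Averaged over the 3 libraries, H2-Q7 was highest in migratory DC (488 CPM), then CD8 T (269), regulatory T (253), CD4 T (196), cDC1 (162) and B (113). The T classes overlapped in their ranges over libraries, as did cDC1 and B. H2-T23 was highest in migratory DC (245 CPM), and the other 5 classes lay between 97.7 and 121 CPM with ranges that overlapped throughout. H2-T22 was highest in migratory DC (148 CPM) and regulatory T (126 CPM), whose ranges did not overlap, and lowest in B (65.5) and cDC1 (48.7). H2-M3 was highest in B (64.1 CPM, range 57.3 to 69.3) and lowest in CD4 T (37.4 CPM, range 35.6 to 38.5).

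Across the 18 points of class and library, the genes most like H2-Q7 by Pearson correlation of log2(CPM + 10), among 4791 genes, were H2-K1 (0.86), Cnn2 (0.84), Idnk (0.83), Rnaset2a and Tagln2 (both 0.81). Those most like H2-T23 were Camk1d (0.86), Ier5 (0.82), Myadm, Tomm22 (both 0.80) and Mcl1 (0.79). Those most like H2-M2 were Tnfrsf11a, Slc9a3r2, Arhgap28, Gca and Nmt1, all at 0.98. The points share libraries and cells of a class, and the H2-M2 values separate migratory DC from the rest, so these coefficients describe these data only. Between the members, H2-Q7 and H2-Q6 correlated at 0.60 and H2-Q7 and H2-T23 at 0.24.

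Several members also differed between Xist and Y-linked barcodes of a library. Within a library, barcodes with Xist and no Y-linked UMI are taken to come from other animals than barcodes with Y-linked UMIs and no Xist. The sources used here give neither the number of animals of either sex in a pool nor their genetic background, so sex and other differences between the animals cannot be told apart in these ratios. In the free OVA library H2-Q7 was far lower in Xist barcodes. In B barcodes it stood at 38.7 CPM in 864 Xist barcodes and 114 CPM in 2861 Y-linked barcodes, a ratio of 0.339 (0.289 to 0.395). Among CD4 T barcodes it stood at 42.6 CPM in 174 Xist barcodes and 193 CPM in 616 Y-linked barcodes, a ratio of 0.220 (0.160 to 0.296). In CD8 T barcodes it stood at 96.6 CPM in 52 Xist barcodes and 267 CPM in 229 Y-linked barcodes, a ratio of 0.362. In B barcodes of this library 0.369% of the tested genes were lower by the 1.5-fold measure, in CD4 T 2.17% and in CD8 T 9.24%, and H2-Q7 was at percentile 0.160 in B and 0.104 in CD4 T. Median depths of Xist and Y-linked barcodes were close, at 5345 and 5286 UMIs in B and 6238 and 6147 in CD4 T.

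H2-Q6 was also lower in Xist barcodes of free OVA in B and CD4 T, with 13.5 CPM in Xist and 48.4 CPM in Y-linked B barcodes (ratio 0.280, 0.213 to 0.362), and 13.6 and 36.7 CPM in CD4 T barcodes. In CD8 T barcodes H2-Q6 stood at 42.3 CPM in Xist and 55.0 CPM in Y-linked barcodes (ratio 0.768, 0.404 to 1.36), inside the bounds. H2-Q4, also of the H2-Q cluster, went the other way in B barcodes, with 51.3 CPM in Xist and 29.6 CPM in Y-linked barcodes (ratio 1.73, 1.48 to 2.03), where 0.208% of genes were higher by the measure. H2-Q4 was also the higher one in Xist B barcodes of LysoPS-OVA (38.1 and 23.5 CPM, ratio 1.62) and of citrate buffer (35.2 and 24.8 CPM, ratio 1.42), inside the bounds after the pseudocount. H2-T23 (182 and 175 CPM in B), H2-M3 (78.8 and 69.3 CPM) and H2-T22 (80.5 and 71.9 CPM) were near each other in Xist and Y-linked B barcodes of free OVA, while in the 52 Xist and 229 Y-linked CD8 T barcodes H2-T23 stood at 232 and 150.0 CPM (ratio 1.55, with 2.27% of genes higher). Close too were the classical genes, at ratios of 1.08 for H2-K1 and 0.978 for H2-D1 in B barcodes.

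In the other libraries the H2-Q7 ratios were nearer to 1 or above it. In LysoPS-OVA, H2-Q7 stood at 123 CPM in Xist and 133 CPM in Y-linked B barcodes (ratio 0.929), and at 213 and 329 CPM in CD4 T barcodes (ratio 0.647, 0.563 to 0.742). There 1.2% of the tested genes were lower by the measure. H2-Q6 was lower in the Xist barcodes of LysoPS-OVA CD4 T, at 16.7 CPM in Xist and 43.4 CPM in Y-linked barcodes (ratio 0.384), and so was H2-T23 at 48.2 and 81.7 CPM (ratio 0.590). In CD8 T barcodes of LysoPS-OVA, where 4.3% of genes were lower, H2-Q7 stood at 299.7 CPM in Xist and 454 CPM in Y-linked barcodes (ratio 0.660, 0.565 to 0.768), inside the 1.5-fold bounds after the pseudocount. There H2-Q6 stood at 32.1 CPM in Xist and 72.6 CPM in Y-linked barcodes (ratio 0.443) and H2-T23 at 55.0 and 89.1 CPM (ratio 0.618). In citrate buffer, H2-Q7 was 135 CPM in Xist and 99.3 CPM in Y-linked B barcodes (ratio 1.36, 1.23 to 1.498), and 135 and 118 CPM in CD4 T barcodes (ratio 1.14). The difference of these ratios between libraries was not tested.

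**Figure D4:**
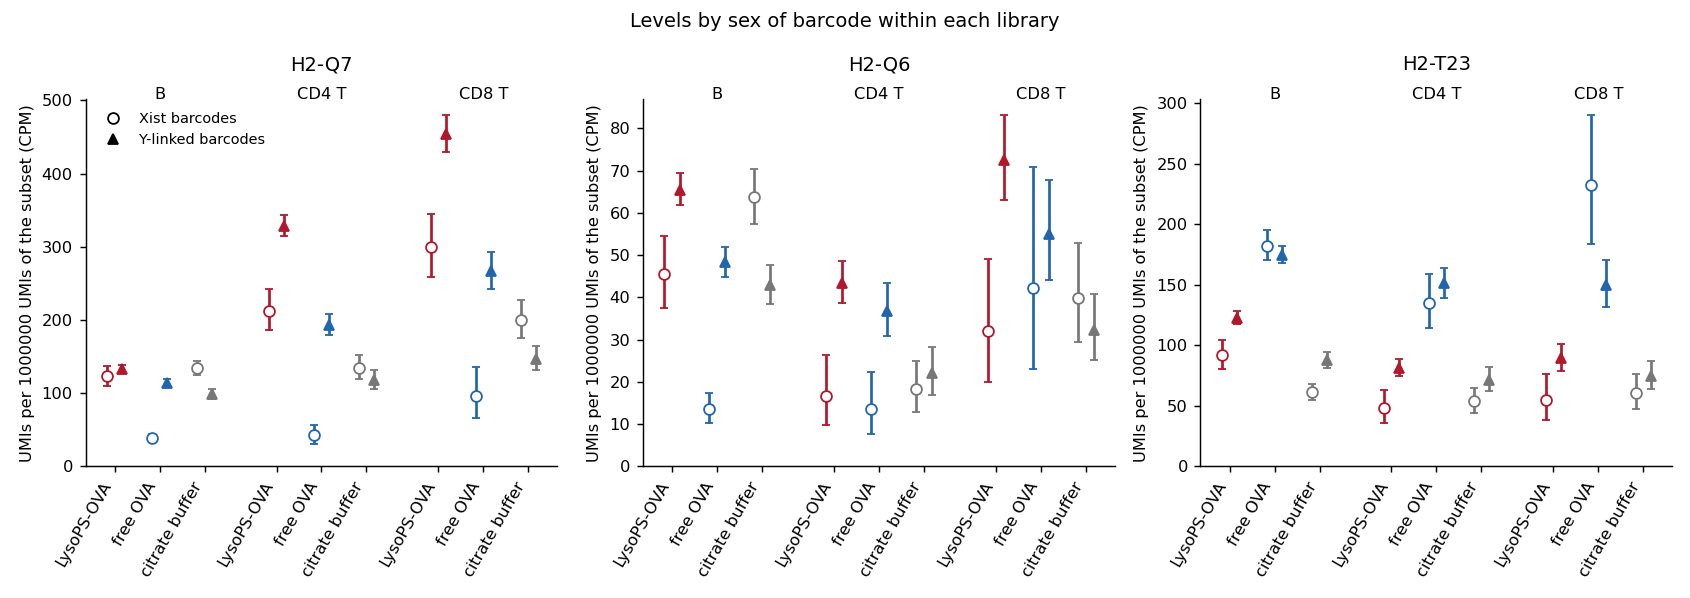
H2-Q7, H2-Q6 and H2-T23 in B, CD4 T and CD8 T barcodes of each library (x axis) as UMIs per 1000000 UMIs of the subset (y axis, CPM), with open circles for Xist barcodes, filled triangles for Y-linked barcodes and exact Poisson 95% intervals. In free OVA, H2-Q7 lies at 38.7, 42.6 and 96.6 CPM in Xist barcodes, below 114, 193 and 267 CPM in Y-linked barcodes, while H2-T23 in free OVA is above both other libraries in either kind of barcode.

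Within barcodes of either sex, the H2-Q7 ratios between libraries differed from those over all barcodes. For CD4 T barcodes the LysoPS-OVA/citrate buffer ratio was 2.78 in Y-linked and 1.58 in Xist barcodes, above 1.5 in both. The ratio of free OVA to citrate buffer was 1.63 in Y-linked and 0.315 in Xist barcodes, on opposite sides of 1. The ratio of LysoPS-OVA to free OVA was 1.70 in Y-linked and 5.00 in Xist barcodes. In CD8 T barcodes the LysoPS-OVA/citrate buffer ratio was 3.09 in Y-linked and 1.497 in Xist barcodes. For H2-Q6 the LysoPS-OVA/citrate buffer ratio held in Y-linked barcodes (1.96 in CD4 T, 2.25 in CD8 T) and was 0.912 and 0.805 in Xist barcodes, which rest on 18 and 21 UMIs in LysoPS-OVA. The H2-T23 ratio of free OVA to citrate buffer was 1.99 in Y-linked and 2.98 in Xist B barcodes, and 2.11 and 2.51 in CD4 T barcodes, so it was above 1.5 in both. For H2-M2 in migratory DC, the LysoPS-OVA/citrate buffer ratio was 3.69 in Y-linked barcodes (125 and 192 barcodes). In Xist barcodes it was 8.88, where 17 LysoPS-OVA barcodes held 66 UMIs. In barcodes rich in Malat1 and ribosomal UMIs the H2-Q7 ratios of CD4 T barcodes were 2.53, 1.26 and 2.01 for LysoPS-OVA to citrate buffer, free OVA to citrate buffer and LysoPS-OVA to free OVA. These are close to the values over all CD4 T barcodes. The subset held 1823 of the 2004 CD4 T barcodes in LysoPS-OVA, 942 of 1081 in free OVA and 1301 of 1705 in citrate buffer. With so large an overlap close values were likely in advance, and the part of RNA quality was not tested.

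Partners of class I molecules lay within the 1.5-fold bounds in the lymphocyte classes. Of 15 genes (B2m, the peptide transporter genes Tap1 and Tap2, the immunoproteasome subunits Psmb8, Psmb9 and Psmb10, the class I transactivator Nlrc5, peptide loading factors, H2-K1 and H2-D1), 0 were 1.5-fold higher or lower in B, CD4 T, regulatory T or CD8 T barcodes in any of the 3 comparisons. All 15 were tested in the T cell classes and 14 in B barcodes. Among all genes 0.705% were higher in CD4 T and 0.857% in CD8 T barcodes for LysoPS-OVA over citrate buffer. In either direction, over the 3 comparisons, 0.397% to 3.20% of genes passed in B, CD4 T and CD8 T barcodes. In regulatory T barcodes 4.16% to 9.06% did, so a count of 0 is near the background. For LysoPS-OVA over citrate buffer in CD4 T barcodes their median log2 ratio was -0.01, against -0.12 over all genes tested. H2-K1 had LysoPS-OVA/citrate buffer ratios of 1.20 (1.17 to 1.24) in CD4 T, 1.31 in CD8 T and 1.48 in regulatory T barcodes, and H2-D1 of 0.990, 1.03 and 1.11. B2m had 1.18, 1.20 and 1.34. Among the H2-D1 values the free OVA library was highest, at 1.19 (1.15 to 1.23) times citrate buffer in CD4 T barcodes. In migratory DC barcodes Nlrc5 stood at 79.6 CPM in LysoPS-OVA, 38.3 in free OVA and 46.9 in citrate buffer, and Tapbpl at 173 CPM in free OVA and 111 in citrate buffer. Of all genes there, 5.2% were higher in LysoPS-OVA than in citrate buffer, 14.7% higher in LysoPS-OVA than in free OVA and 0.965% higher in free OVA than in citrate buffer. In cDC1 barcodes Tap2 was lower in LysoPS-OVA than in citrate buffer (12 and 42 UMIs), 1 of 10 partners tested, where 31.4% of genes were lower. There 2 of 11 partners, Tap2 and Canx, were lower in LysoPS-OVA than in free OVA, where 14.4% of genes were lower.

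Surrounding genes of the complex were counted by the same measure. Between H2-K1 and H2-M2 on chromosome 17, 48 genes other than the members were tested in CD4 T barcodes and 48 in CD8 T barcodes for LysoPS-OVA over citrate buffer. In each class 0 were higher and 3 (6.25%) lower by the 1.5-fold measure. On all other chromosomes 0.692% of tested genes were higher and 1.57% lower in CD4 T, and 0.818% and 1.96% in CD8 T barcodes. For free OVA over citrate buffer 0 of 50 were higher and 3 (6%) lower in CD4 T, against 0.470% and 1.54% on the other chromosomes. In B barcodes 0 of 56 were higher or lower, against 0.608% and 1.65%. For LysoPS-OVA over citrate buffer 1 of 55 was higher and 2 lower in B barcodes, against 1.28% and 1.93%. In regulatory T barcodes 1 of 46 was higher and 4 lower in that comparison, against 3.31% and 2.94%. In migratory DC barcodes 2 of 52 were higher and 4 lower, against 5.12% and 6.68%. The 3 lower ones in CD4 T barcodes were the class II genes H2-Aa, H2-Ab1 and H2-Eb1. Of 8 MHC class II genes tested there, these and Cd74 were lower in both ovalbumin libraries, where 1.6% (LysoPS-OVA) and 1.51% (free OVA) of all genes were lower, with Cd74 at 223 CPM in LysoPS-OVA, 181 in free OVA and 434 in citrate buffer, H2-Aa at 91.5, 81.7 and 195 CPM, and H2-Ab1 at 49.5, 47.5 and 105 CPM. The 6 B gate markers summed to 84.7 CPM in CD4 T barcodes of LysoPS-OVA, 69.7 of free OVA and 128 of citrate buffer. The part of transcripts from other cells in these values was not tested. Against citrate buffer, 4 of 8 class II genes were lower in LysoPS-OVA CD8 T barcodes and 1 of 8 in free OVA (1.97% and 2.02% of all genes). In regulatory T barcodes 3 of 7 and 1 of 7 were lower, against 189 of 6257 genes and 5.77%. B and migratory DC barcodes make class II molecules. In B barcodes 0 of 11 passed in any comparison, against 0.622% to 3.20% of genes in either direction. In migratory DC barcodes 1 of 11 passed, only as higher in free OVA than in citrate buffer (0.965% of genes).

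Genes of the interferon response, to which many class I genes belong in mice, were counted class by class. Of 16 tested in CD4 T barcodes 0 were higher or lower in any comparison. Between 0.397% and 2.31% of all genes were, so a count of 0 is near the background. Of 11 tested in B barcodes the GTPase gene Irgm1 alone differed, at 24.8 CPM in LysoPS-OVA, 44.9 in free OVA and 20.02 in citrate buffer. Of all genes there, 0.641% were higher in free OVA than in citrate buffer and 0.376% lower in LysoPS-OVA than in free OVA. Among CD8 T barcodes Iigp1, another such GTPase gene, was 67.2 CPM in LysoPS-OVA and 35.1 in citrate buffer, 1 of 16 tested against 0.857% of all genes. In regulatory T barcodes 4 of 17 were higher in LysoPS-OVA than in citrate buffer (Ifit1, Oas1a, Iigp1 and Usp18), with Iigp1 at 172 CPM in LysoPS-OVA and 78.5 in citrate buffer, against 3.39% of all genes. Their median log2 ratio was 0.48, against -0.03 over all genes tested. In free OVA against citrate buffer, 4 of 16 were higher and 1 lower there, against 3.29% and 5.77% of all genes. In cDC1 barcodes 3 of 5 (Irf7, Isg15 and Gbp2) were higher in free OVA than in citrate buffer, against 6.5% of all genes, with a median log2 ratio of 0.59 against 0.04. These 3 genes rest on 46 to 80 UMIs in free OVA and 11 to 14 UMIs in citrate buffer. In migratory DC barcodes 1 of 9 was higher and 1, Isg15, lower in LysoPS-OVA than in citrate buffer, against 5.2% and 6.62% of genes. In free OVA 2 of 8 were lower than in citrate buffer, Isg15 among them, against 14.5% of genes. Isg15 stood at 94.7 CPM in LysoPS-OVA, 106 in free OVA and 188 in citrate buffer. Between the ovalbumin libraries 1 of 9 was higher in LysoPS-OVA, against 14.7% of genes.

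Receptors and further class I-like genes were sparse. Of 14 receptor genes measured, 4 were testable in CD8 T barcodes. The 14 include Cd8a and Cd8b1, which define the CD8 T gate, so their detection in this class was fixed in advance. Klrd1 stood at 133 CPM in CD8 T barcodes of LysoPS-OVA, 144 in free OVA and 126 in citrate buffer. Klra1, a Ly49 receptor gene, was lower, at 13.5 CPM in LysoPS-OVA, 7.58 in free OVA and 30.5 in citrate buffer, where 1.97% (LysoPS-OVA) and 2.02% (free OVA) of genes were lower. In cDC1 barcodes 1 receptor gene was testable in each comparison. It was higher in free OVA than in citrate buffer (6.5% of genes) and lower in LysoPS-OVA than in free OVA (14.4%). Of 12 other nonclassical and class I-like genes, at most 2 were testable in any class. The 1 tested in cDC1 barcodes for LysoPS-OVA over citrate buffer was higher, where 4.57% of genes were. H2-T24 stood at 24.1 CPM in LysoPS-OVA, 25.7 in free OVA and 23.2 in citrate buffer in B barcodes. Cd1d1, which presents lipids, stood at 76.2 CPM in LysoPS-OVA, 55.1 in free OVA and 71.9 in citrate buffer in migratory DC barcodes, inside the 1.5-fold bounds.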

How the data were processed

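Nodes were digested, dead cells removed and 10000 cells loaded per library with 3′ v3.1 chemistry, per the labels' protocols. The deposited matrices hold raw UMI counts for each barcode. The authors used Cell Ranger 7.2.0 and mm10 for them, as the submitters' processing notes say. The annotation and the intron setting are not given in the sources used here, so antisense or overlapping genes may add counts. Each matrix holds more barcodes than the cells loaded.

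A barcode was kept with 300 genes or more and a mitochondrial share of UMIs of 10% or less, and doublets called by Scrublet (expected rate 0.8% per 1000 barcodes) were removed, 8.05% in LysoPS-OVA, 7.41% in free OVA and 16.5% in citrate buffer. Classes were gated on detected markers, with CD4, regulatory and CD8 T barcodes split by Cd4, Foxp3, Cd8a and Cd8b1. UMIs were summed per class and library and scaled to CPM. Intervals are exact Poisson for CPM, conditional binomial for ratios and exact binomial for shares, at 95%. Sex of barcode was read from Xist and from Ddx3y, Uty, Kdm5d and Eif2s3y.

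With 1 library per group no test was made. The members, the gates, the gene lists and the rule for named genes (all members, the 5 genes most like H2-Q7, H2-T23 and H2-M2, and up to 4 per list) were chosen with earlier results of these data known. Other genes of a list past 1.5-fold, Klrd1, H2-T24 and Cd1d1 were named after their values were seen. The functions were tested on simulated data. Scripts ran in Python 3.11.15 with scanpy 1.11.5, pandas 2.3.3, scipy 1.17.1, numpy 2.4.6, matplotlib 3.10.9 and Biopython 1.88. Gene positions came from GENCODE (GRCm38), and 32158 of 32285 genes (99.6%) had one. Other gates, filters, scalings, depths and sexes of barcode were tried. The interferon list in cDC1 barcodes is not reported here for LysoPS-OVA against either other library.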

Additional observations from a re-analysis of the deposited data

Results flagged for a closer look

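In 3 cases a ratio between libraries was past 1.5-fold in opposite directions in barcodes of either sex, each with at least 50 barcodes. The differences between the sexes were not tested. H2-Q7 in CD4 T barcodes had a ratio of free OVA to citrate buffer of 1.63 in Y-linked barcodes and 0.315 in Xist barcodes. H2-Q7 in CD8 T barcodes had a ratio of free OVA to citrate buffer of 1.82 in Y-linked barcodes and 0.482 in Xist barcodes. H2-Q6 in regulatory T barcodes had a LysoPS-OVA/citrate buffer ratio of 2.11 in Y-linked barcodes and 0.647 in Xist barcodes, the last resting on 9 UMIs in LysoPS-OVA and 19 in citrate buffer.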

How the results depend on the processing

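No paired analysis was possible because each group is 1 library. Without replicates, a ratio counts as moved when an alternative takes it outside the counting interval of its main value. This rule leaves out the counting error of the alternative itself, so a ratio from few barcodes can move by counting error alone. The H2-Q7 LysoPS-OVA/citrate buffer ratio in CD4 T barcodes (2.495) was 2.75 over the median gene, 2.71 with immunoglobulin, receptor, ribosomal and mitochondrial genes left out of the total, 2.78 in Y-linked and 1.58 in Xist barcodes. In B barcodes (1.19) it was 1.11 in thinned, 1.34 in Y-linked and 0.914 in Xist barcodes. The H2-Q7 ratio of free OVA to citrate buffer in CD4 T barcodes (1.22) was 1.06 thinned, 1.63 in Y-linked and 0.315 in Xist barcodes, and that of LysoPS-OVA to free OVA (2.05) was 2.28, 1.70 and 5.00. The H2-T23 LysoPS-OVA/citrate buffer ratio was 1.45 thinned and 1.39 in Y-linked barcodes for B (1.57), and 0.894 in Xist barcodes for CD4 T (1.15). The H2-M2 LysoPS-OVA/citrate buffer ratio in migratory DC (2.67) was 1.94 in barcodes rich in Malat1 and ribosomal UMIs, 2.02 as a mean of per-barcode CPM, 3.69 in Y-linked and 8.88 in Xist barcodes. Leaving out the barcode with most H2-M2 UMIs, an alternative chosen after seeing the data, gave 2.40. Ratios past 1.5-fold that changed direction were H2-Q6 of LysoPS-OVA to citrate buffer in Xist barcodes (0.912 in CD4 T, 0.805 in CD8 T), H2-T23 of LysoPS-OVA to citrate buffer in Y-linked migratory DC barcodes (0.989, against 1.66), and H2-M2 of free OVA to citrate buffer in migratory DC barcodes rich in Malat1 and ribosomal UMIs (0.831, against 1.67). The cause was not tested. Keeping doublets moved 0 of 102 member ratios outside their intervals and dropping the barcode filter 0 of 102, while 36 of 98 stayed inside them in Xist barcodes. Xist barcodes are few, with 199 of 2004 CD4 T barcodes in LysoPS-OVA and 470 of 1705 in citrate buffer. The part of subset size in these counts was not tested. With a pseudocount of 0, 14 of 18 counts of differing genes moved by over 1.5 times, and in CD4 T barcodes the count for LysoPS-OVA over citrate buffer was 309 (284 with a pseudocount of 1), against 144. With no filter on low values 10 of 18 did, by at most 11.4 times. Depth limits cDC1 and H2-M2 outside migratory DC, where a few UMIs set each value.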
